A study of Mus musculus with 16 samples.

Results

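Tnfrsf4, Tnfrsf9 and Tnfrsf18 encode OX40, 4-1BB and GITR, the costimulatory receptors of the tumour necrosis factor (TNF) family that T cells display after activation. The 3 genes were chosen by name, with earlier results of these data known. They are 3 of 8552 genes that the deposited table names among its 17850 rows. Their RNA was measured in purified CD4 T cells of C57BL/6 J mice aged 2 months that carry the Rosa26-CreERT2 +/- transgene and the Sin3AF/F alleles, whose floxed Sin3A exons are removed when tamoxifen activates the Cre. Cells spent 6 days in IL-7, a cytokine that keeps resting T cells alive, without tamoxifen (Sin3A-sufficient) or with it (Sin3A-deficient). Cells of both kinds were also taken after 3 further days under Th17-polarizing conditions. No group spent those days without these conditions, so that time in culture and polarization cannot be told apart. Each of the 4 groups has 4 libraries. Their names end in 1 of 4 numbers, as in BASAL955, BASAL957, BASAL959 and BASAL960 for sufficient IL-7 cells. The other groups follow as BASALTAM955 (deficient IL-7), D3955 (sufficient Th17) and D3TAM955 (deficient Th17). The number of BASAL959 is labelled female and the other 3 male. No label says that a number marks a single mouse, so the error behind each p-value is that between libraries and may be technical. All 16 libraries share the genotype, the sufficient cells included, and tamoxifen was given only to the deficient cells, so that loss of Sin3A and exposure to tamoxifen cannot be told apart.

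The 3 receptors have no death domain in their cytoplasmic tails. After binding their ligands (the products of Tnfsf4, Tnfsf9 and Tnfsf18, respectively) they recruit TRAF adaptor proteins and activate NF-kB, and so prolong the division and survival of stimulated T cells. GITR and OX40 are also carried by resting regulatory T cells, whereas 4-1BB is nearly absent before stimulation. Sin3A is the scaffold of a corepressor complex that brings histone deacetylases to promoters.

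The values below are normalized counts, in which the authors scaled the reads of a library by its size factor, and were restored from a table whose decimal points had been lost. Of its rows, 79.0% could be restored with enough certainty to be used, and 13675 were tested. Over all rows, the less certain ones included, the restored reads summed to 19765209 to 28581273 per library. Only genes listed by the authors as lower in deficient than in sufficient Th17 cells carry a name. The direction of every named gene in that comparison is therefore fixed by the listing and is no evidence of its own. Sin3a itself, counted over all its exons and so also outside the floxed part, had 2106 ± 181 normalized counts in sufficient and 1774 ± 49.8 in deficient Th17 cells (SD, n = 4; log2 change -0.24, adjusted p = 0.0111). In IL-7 cells the Sin3a difference did not pass the test (log2 change -0.19, adjusted p = 0.191).

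In IL-7 cells, GITR was the most abundant of the 3 receptor transcripts. Tnfrsf18 stood at 3388, 3347, 3097 and 3708 normalized counts in BASAL955, BASAL957, BASAL959 and BASAL960, a mean of 3385 ± 251 (SD, n = 4). In the deficient libraries, given in the same order of numbers here and below, the Tnfrsf18 values were 2303, 2150, 2332 and 2413 (2299 ± 110), all below the sufficient ones. After Th17 polarization Tnfrsf18 reached 6259, 8771, 9770 and 9939 in sufficient cells (8685 ± 1697). Deficient Th17 cells had Tnfrsf18 values of 1916, 3324, 2604 and 2756 (2650 ± 579), which overlap both IL-7 groups.

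OX40 started lower and ended level with GITR. In sufficient IL-7 cells Tnfrsf4 had 983, 1263, 1196 and 1708 normalized counts (1288 ± 305, SD, n = 4) and 982, 1026, 1127 and 1064 in deficient ones (1050 ± 61.3), and these groups overlap. In sufficient Th17 cells Tnfrsf4 had 6835, 9119, 10242 and 9377 (8893 ± 1454). Deficient Th17 cells had 2211, 3188, 2582 and 2632 (2653 ± 403), above every IL-7 library and below every sufficient Th17 library.

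4-1BB was the least abundant and the most variable. In sufficient IL-7 cells Tnfrsf9 had 246, 379, 274 and 1253 normalized counts (538 ± 480, SD, n = 4) and 127, 117, 181 and 314 in deficient IL-7 cells (185 ± 90.6). The sufficient Th17 libraries held 3170, 3118, 2607 and 8377 (4318 ± 2718), and the deficient ones 408, 768, 624 and 960 (690 ± 233). Number 960 was the highest of the 4 numbers for Tnfrsf9 in 4 of 4 groups, and for Tnfrsf18 in 3 of 4. Without number 960 the Tnfrsf9 means were 300 ± 70.1 in sufficient IL-7 cells and 2965 ± 311 in sufficient Th17 cells (SD, n = 3).

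Levels of different genes can be compared only per length, taken here as the union of annotated exons (1365 bases for Tnfrsf4, 2722 for Tnfrsf9 and 1524 for Tnfrsf18 in GENCODE M21). In sufficient IL-7 cells the order of levels was Tnfrsf18 (2221 ± 165 normalized counts per kilobase, SD, n = 4), then Tnfrsf4 (943 ± 223), then Tnfrsf9 (198 ± 176). In sufficient Th17 cells Tnfrsf4 (6515 ± 1065 per kilobase) and Tnfrsf18 (5699 ± 1114) lay within each other's spread. Tnfrsf9 stayed below both there, at 1586 ± 999 per kilobase. In deficient Th17 cells Tnfrsf4 (1944 ± 295 per kilobase) and Tnfrsf18 (1739 ± 380) were again within each other's spread, above Tnfrsf9 (253 ± 85.7).

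**Figure D1:**
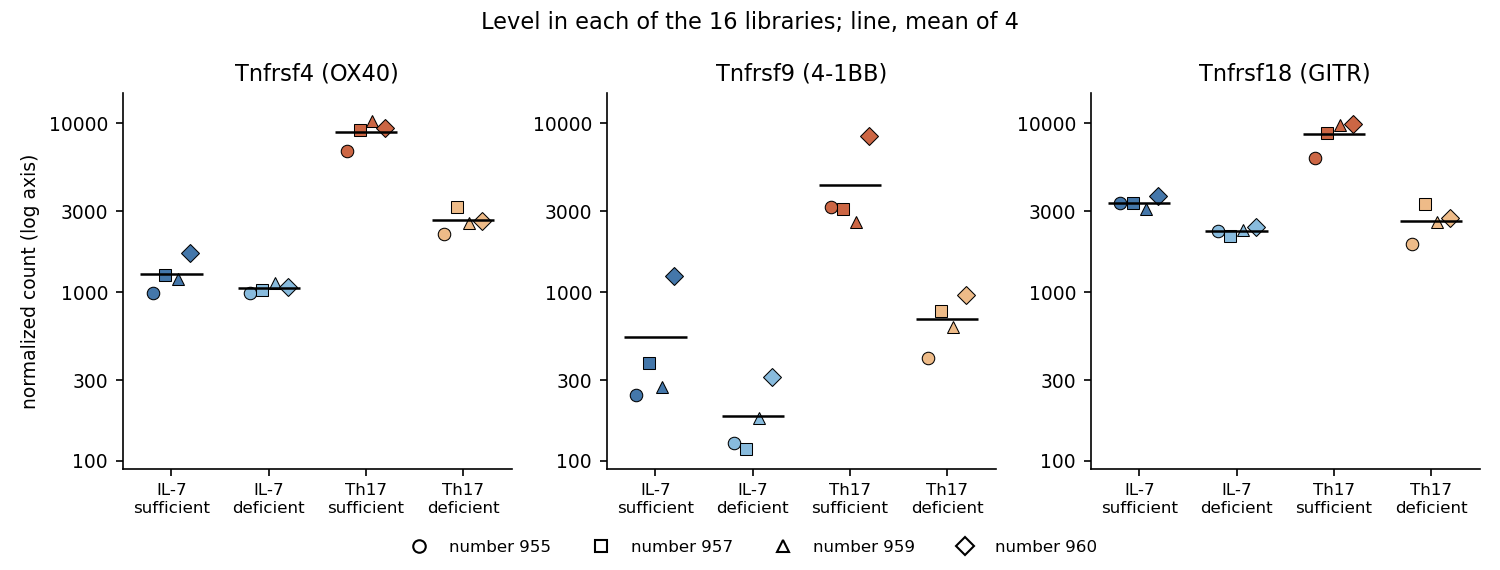
Normalized counts (log axis) of Tnfrsf4, Tnfrsf9 and Tnfrsf18 in each of the 16 libraries, with a line at the mean of the 4 libraries of a group and a symbol for each number. The sufficient Th17 libraries lie above all other groups for Tnfrsf4, Tnfrsf9 and Tnfrsf18, and number 960 (diamond) is the highest Tnfrsf9 point in every group.

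In Sin3A-sufficient cells all 3 receptors were higher after the days of Th17 polarization than in IL-7. Tnfrsf9 rose by 3.18 on the log2(normalized count + 1) scale (SE 0.456, adjusted p = 4.89e-06), a 9.04-fold change. Tnfrsf4 rose by 2.80 (SE 0.146), which is 6.96-fold, and Tnfrsf18 by 1.34 (SE 0.144), which is 2.53-fold. For each of the 3 genes all 4 Th17 libraries lay above all 4 IL-7 libraries. Of all tested rows, 37.2% rose in the same comparison and 32.4% had such separated groups; among named rows the shares were 41.6% and 36.8%, so a rise by itself was common.

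In Sin3A-deficient cells only part of the set was higher after the same polarization. Tnfrsf9 rose by 1.94 (SE 0.456, adjusted p = 8.11e-04) and Tnfrsf4 by 1.33 (SE 0.146), a 3.84-fold and a 2.51-fold change, and for both genes the groups were separate. Tnfrsf18 showed a log2 change of 0.18 (95% confidence interval -0.12 to 0.48, adjusted p = 0.263), with overlapping groups. Without D3TAM955, the lowest of its group, the Tnfrsf18 change was 0.33 (adjusted p = 0.0291). Among all tested rows 37.8% rose in deficient cells and 35.8% had separate groups with the Th17 libraries above, and among named rows 28.4% and 25.6%.

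Deficient Th17 cells carried less of all 3 transcripts than sufficient Th17 cells. Tnfrsf9 fell by 2.54 on the log2 scale (SE 0.456, adjusted p = 1.29e-04), to 5.82-fold less. Tnfrsf4 fell by 1.74 (SE 0.146, adjusted p = 2.93e-08), to 3.34-fold less, and Tnfrsf18 fell by 1.72 (SE 0.144, adjusted p = 2.94e-08), to 3.29-fold less. No deficient library reached the lowest sufficient value for any of the 3 genes. As background, 29.0% of all tested rows fell in this comparison and 23.7% had deficient libraries all below the sufficient ones. Among the named rows, which were listed for being lower, 55.2% fell and 45.3% were so separated, so the count of 3 in 3 says little about the receptors. The median change of all named rows was -0.42. The authors' deposited table gives log2 fold changes of -1.74 for Tnfrsf4, -2.65 for Tnfrsf9 and -1.71 for Tnfrsf18. The names were joined to rows by these same values, so their likeness to the changes above is no check. The authors' mean counts, which the join did not use, are 9020 for Tnfrsf4, 2179 for Tnfrsf9 and 5624 for Tnfrsf18. Those for Tnfrsf9 and Tnfrsf18 lie between the restored means of the Th17 groups. That for Tnfrsf4 lies above both (8893 and 2653), for a reason that was not tested. In bulk RNA a smaller share of cells that carry a transcript and less of it per cell cannot be told apart.

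Before polarization the differences were smaller and less certain. In IL-7 cells Tnfrsf18 fell by 0.56 in deficient against sufficient cells (SE 0.144, adjusted p = 0.0369), a 1.47-fold difference with separate groups, in a comparison where 1.95% of all tested rows and 2.89% of named rows fell. Separate groups with the deficient libraries below were found in 6.49% of all tested rows and 9.46% of named rows. Leaving out any 1 of 7 of the 8 IL-7 libraries (all but BASAL959), or D3957, ended the Tnfrsf18 call, for example BASAL960 (log2 change -0.51, adjusted p = 0.0881) or BASALTAM957 (-0.52, adjusted p = 0.115). The size of the Tnfrsf18 change lay between -0.61 and -0.51 in all 28 alternatives run. Tnfrsf4 had a log2 change of -0.27 (95% confidence interval -0.57 to 0.04, adjusted p = 0.366). Tnfrsf9 had -1.31 (-2.27 to -0.35, adjusted p = 0.125), with groups that overlap where BASALTAM960 (314) lies above BASAL955 and BASAL959. Without number 960 in every group the Tnfrsf9 change was -1.08 (adjusted p = 0.0192).

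The deletion effect was larger after polarization for OX40 and GITR. The effect in Th17 cells minus that in IL-7 cells was -1.47 for Tnfrsf4 (SE 0.206, adjusted p = 4.13e-05) and -1.16 for Tnfrsf18 (SE 0.203, adjusted p = 2.87e-04) on the log2 scale. For Tnfrsf9 this difference was -1.23 (95% confidence interval -2.59 to 0.12, adjusted p = 0.141) and did not pass. It passed without BASAL960 (-1.76, adjusted p = 0.0106), and also without number 960 in every group (-1.27, adjusted p = 0.00702). As background, 18.3% of all tested rows and 34.8% of named rows had a more negative effect in Th17 cells that passed the test.

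**Figure D2:**
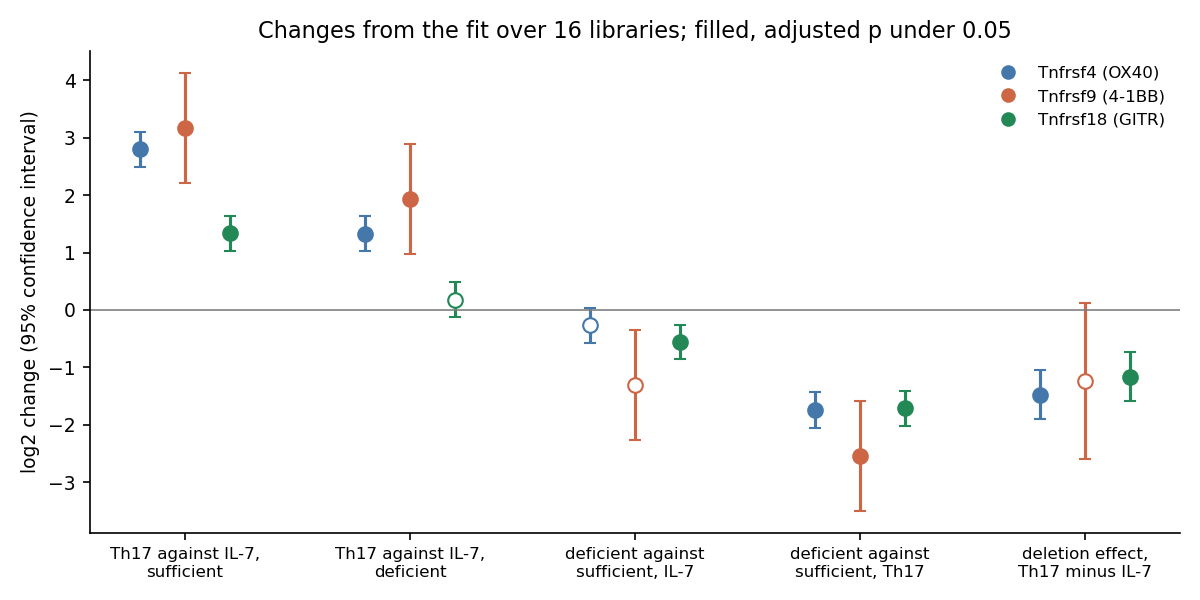
Log2 changes of the 3 receptors in the 4 comparisons between groups and in the difference between the deletion effects, with 95% confidence intervals from the fit over 16 libraries; filled points have an adjusted p under 0.05. All 3 receptors rose with polarization in sufficient cells and fell with deletion in Th17 cells, while the intervals of Tnfrsf9 are the widest.

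The ratio between 2 receptors within a library does not depend on its size factor. The Tnfrsf4 to Tnfrsf18 ratio of normalized counts was 0.290, 0.377, 0.386 and 0.461 in sufficient IL-7 cells and 0.427, 0.477, 0.483 and 0.441 in deficient ones. In Th17 cells the ratio was 1.09, 1.04, 1.05 and 0.943 in sufficient and 1.15, 0.959, 0.992 and 0.955 in deficient libraries. Every Th17 library thus lay above every IL-7 library, and the Th17 groups overlapped each other. The mean log2 ratio differed between Th17 and IL-7 cells by 1.46 in sufficient and by 1.15 in deficient cells. In a two-sided exact permutation test (4 libraries against 4) both gave p = 0.0286, the smallest value that the design allows, and 0.114 after adjustment over the 12 ratio tests. Between deficient and sufficient Th17 cells the mean log2 Tnfrsf4 to Tnfrsf18 ratio differed by -0.02 (exact permutation p = 0.8), with SDs of 0.13 and 0.09 in the 2 groups. The ratio of Tnfrsf9 to Tnfrsf18 was 0.493 ± 0.253 in sufficient and 0.258 ± 0.061 in deficient Th17 cells (SD, n = 4; exact permutation p = 0.0571, adjusted 0.137). In IL-7 cells the Tnfrsf9 to Tnfrsf18 ratio was 0.153 ± 0.124 and 0.079 ± 0.036 in the same order. None of the 12 ratio tests passed after adjustment.

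**Figure D3:**
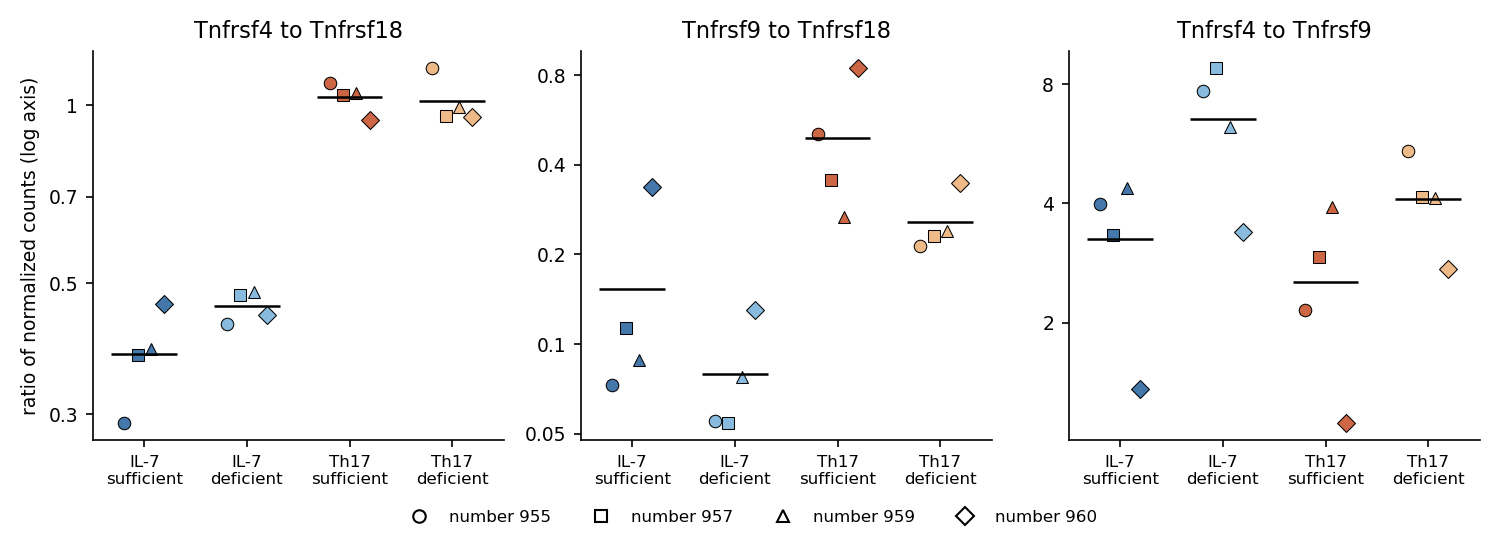
Ratios of normalized counts within each library (log axes), with a line at the mean of each group of 4. The Tnfrsf4 to Tnfrsf18 ratio lies between 0.290 and 0.483 in the IL-7 libraries and between 0.943 and 1.15 in the Th17 libraries, whereas number 960 (diamonds) has the highest Tnfrsf9 to Tnfrsf18 ratio and the lowest Tnfrsf4 to Tnfrsf9 ratio in each group.

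All 3 genes lie on chromosome 4, on the plus strand. In GENCODE M21, on GRCm38 (the reads were aligned to NCBIM37), Tnfrsf9 spans 150914562 to 150946102, Tnfrsf4 156013843 to 156016612 and Tnfrsf18 156026164 to 156028895. Tnfrsf4 and Tnfrsf18 are adjacent protein-coding genes. The bases upstream of the starts of the 3 genes are shown, taken from RefSeq (GRCm38.p6). They are limited to the longest stretch that no annotated exon covers in the 250 bases before each start. Any part of these bases in the changes was not tested. Tnfrsf9 has 2 listed starts, both inside the span that GENCODE gives the gene. The RefSeq start of Tnfrsf18 also lies inside its GENCODE span. Capitals mark matches, on either strand, to the NFAT core GGAAA and to the STAT motif TTCNNNGAA.
Tnfrsf4, chr4:156013611-156013694, plus strand: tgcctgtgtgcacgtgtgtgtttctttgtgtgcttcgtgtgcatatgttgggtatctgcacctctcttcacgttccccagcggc
Tnfrsf9, first start, chr4:150919905-150920154, plus strand: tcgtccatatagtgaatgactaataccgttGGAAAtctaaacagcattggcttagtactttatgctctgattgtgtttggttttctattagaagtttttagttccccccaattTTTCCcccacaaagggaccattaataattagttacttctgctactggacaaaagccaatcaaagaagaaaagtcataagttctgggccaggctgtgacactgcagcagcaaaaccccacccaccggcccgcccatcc
Tnfrsf9, second start, chr4:150927749-150927917, plus strand: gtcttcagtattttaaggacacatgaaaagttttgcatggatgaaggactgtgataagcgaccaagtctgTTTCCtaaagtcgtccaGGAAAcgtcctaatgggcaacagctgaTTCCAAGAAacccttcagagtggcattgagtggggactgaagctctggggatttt
Tnfrsf18, chr4:156026072-156026163, plus strand: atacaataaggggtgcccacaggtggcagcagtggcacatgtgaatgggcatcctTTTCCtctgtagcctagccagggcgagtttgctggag

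Motif matches were counted in the full 250 upstream bases, on both strands, beside the share of all 32851 RefSeq promoters that hold the same motif. The NFAT core GGAAA had 1 match upstream of Tnfrsf4, 2 upstream of the first and 3 upstream of the second Tnfrsf9 start, and 2 upstream of Tnfrsf18; 55.6% of promoters hold it. The NF-kB consensus had 2 overlapping matches, GGGGATTTCC and GGGATTTCCC, which start 43 and 42 bases before the second Tnfrsf9 start, and none in the other 3 windows; 7.25% of promoters hold it. The AP-1 motif TGANTCA was matched once, 15 bases before the second Tnfrsf9 start (6.75% of promoters), and the STAT motif TTCNNNGAA once there and once upstream of Tnfrsf18 (7.02% of promoters). The Tnfrsf18 STAT match starts 99 bases before the RefSeq start, and the nearer Tnfrsf18 NFAT match 61 bases before it. Both lie inside the GENCODE span of the gene, outside the printed stretch. The NF-kB and AP-1 matches of Tnfrsf9 and the NFAT match of Tnfrsf4 also lie outside the printed stretches. The NFAT match 38 bases before the second Tnfrsf9 start lies inside the NF-kB matches. A match describes the letters only.

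The transcript whose levels followed Tnfrsf18 most closely overlaps it. Gm16008, annotated as an antisense gene on the opposite strand, shares 414 of its 1324 exon bases with Tnfrsf18, which has 1524. It was counted at 33.9% to 37.8% of the Tnfrsf18 normalized count in all 16 libraries (median 36.3%), across groups whose Tnfrsf18 means differ from 2299 to 8685. Gm16008 fell in deficient Th17 cells by 1.77 (adjusted p = 2.58e-08). It was picked as the nearest profile over these same libraries, so this fall is no separate evidence. The kit keeps strand, but whether the counting used it is not given in the sources used here. In the shared bases, reads of Tnfrsf18 and Gm16008 therefore cannot be told apart, and the Tnfrsf18 values are uncertain to that extent. By the rule of the smallest root mean square difference between centred log2 profiles over 16 libraries, among 4604 named genes, Gm16008 stood at 0.045 from Tnfrsf18. Next came Dlg4 (0.208), which encodes the scaffold PSD-95, and Fndc3a (0.252).

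The nearest profile to that of OX40 belonged to the ligand of 4-1BB. Tnfsf9 had 60.3 to 108 normalized counts in sufficient and 57.2 to 69.4 in deficient IL-7 cells. Its Th17 values were 303, 604, 690 and 728 in sufficient and 135, 182, 145 and 182 in deficient cells. It lay between 4.44% and 7.76% of the Tnfrsf4 normalized count in every library, at a root mean square difference of 0.185 from Tnfrsf4. Tnfsf9 rose with polarization by 2.81 in sufficient and 1.34 in deficient cells, and fell in deficient Th17 cells by 1.78 (SE 0.234, adjusted p = 4.62e-06). Its deletion effect differed between stages by -1.48 (adjusted p = 0.00204). In this comparison Tnfsf9 was picked for its likeness to Tnfrsf4 over these same libraries. Its similar changes and steady share follow from that choice and are no separate evidence. Inppl1, which encodes the lipid phosphatase SHIP2 (0.287), and Bsg, which encodes the transporter partner basigin (0.301), followed in likeness to Tnfrsf4. For Tnfrsf9 the nearest profiles were further away: Gm17767 (0.582), the laminin chain gene Lama5 (0.632) and the receptor kinase gene Ryk (0.676). Tnfrsf4 was at rank 18 among the profiles nearest to Tnfrsf9 (0.774), and Tnfrsf18 at rank 288 (1.15).

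**Figure D4:**
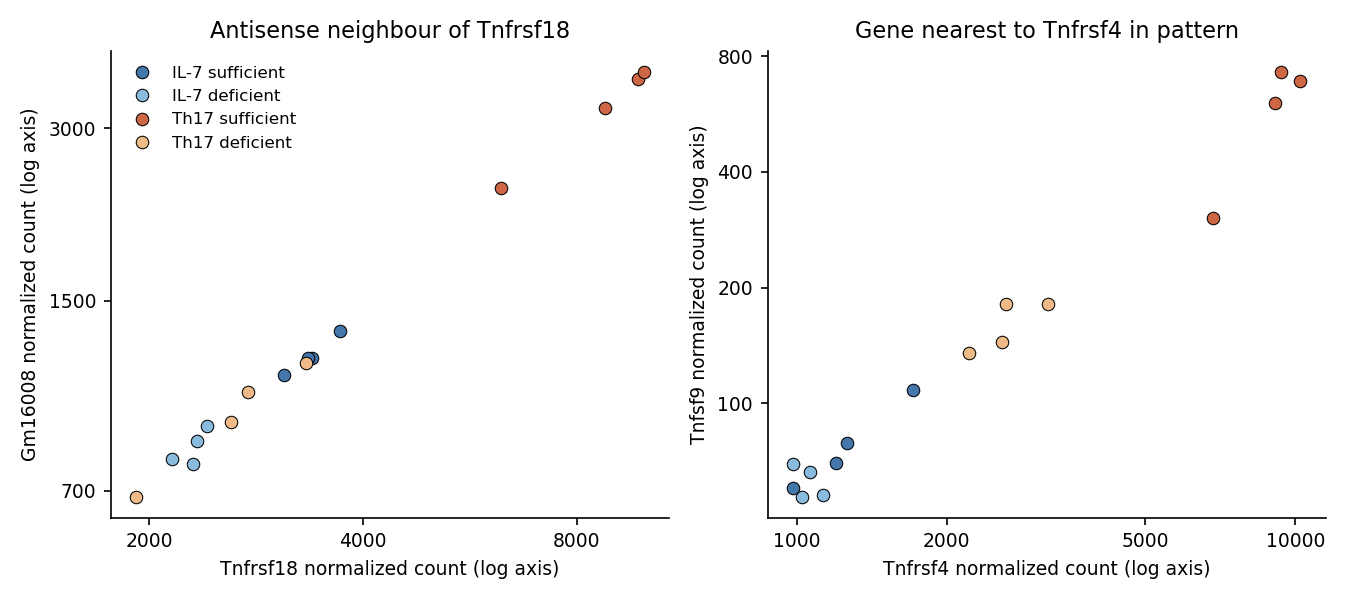
Normalized counts in the 16 libraries (log axes): Gm16008 against Tnfrsf18, and Tnfsf9 against Tnfrsf4. Gm16008 lies between 33.9% and 37.8% of Tnfrsf18, and Tnfsf9 between 4.44% and 7.76% of Tnfrsf4. Both pairs were picked for like profiles over these same libraries.

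Among the genes next to the receptors, the fall in deficient Th17 cells was of unequal size. Sdf4, which lies just before Tnfrsf4 and encodes a calcium-binding protein of the Golgi, fell by 1.18 (adjusted p = 9.20e-09). 9430015G10Rik, beyond Tnfrsf18, had a log2 change of -0.08 (adjusted p = 0.467). Before Tnfrsf9, Errfi1, an inhibitor of the EGF receptor, fell by 2.33 (adjusted p = 2.49e-08), and Park7, which encodes DJ-1, fell by 0.57 (adjusted p = 1.42e-04). These 4 neighbours were taken by position among protein-coding genes and are those that could be tested. Of the other neighbours, B3galt6, Per3 and Uts2 carry no name, and Ttll10 could not be tested. Named genes were listed for being lower in deficient Th17 cells, where 55.2% of named rows and 29.0% of all tested rows fell.

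The other genes of the pathway were taken from lists. Only genes named in the table, joined to a row and restored with enough certainty could be tested. Named genes such as Tnfrsf8, Tnfsf14, Icos and Tigit were left out because their rows were not restored with that certainty. Of 25 other TNF receptor genes 6 could be tested, and 3 fell in deficient Th17 cells (list median -0.35, against -0.42 over all named rows and -0.05 over all tested rows). The shares to read this and the following counts against are the 55.2% of named rows and 29.0% of all tested rows that fell. Tnfrsf25, the death receptor DR3, fell by 1.14 (SE 0.105, adjusted p = 9.36e-08), from 3339 ± 592 to 1505 ± 147 normalized counts. Relt fell by 0.50 (adjusted p = 5.80e-05) and Tnfrsf1a, a TNF receptor with a death domain, fell by 0.33 (adjusted p = 0.00405). Cd27, a costimulatory receptor of resting T cells, had a change of -0.32 (adjusted p = 0.284). Cd27 moved against the 3 receptors on polarization: it went from 7522 ± 2506 to 625 ± 132 normalized counts in sufficient cells (SD, n = 4), a log2 change of -3.53, and by -4.22 in deficient cells. Tnfrsf26 and Relt also fell on polarization of sufficient cells (log2 changes -2.35 and -1.12), while Tnfrsf1b rose by 0.70. Over the list, 2 genes rose and 4 fell in sufficient cells (median -0.67), and 1 rose and 4 fell in deficient cells. As background for this and the following lists, 40.3% of all tested rows and 35.3% of named rows fell on polarization of sufficient cells, and 37.2% and 41.6% rose. In deficient cells 40.8% and 50.1% fell, and 37.8% and 28.4% rose. In IL-7 cells 1 of the 6, Tnfrsf25, fell with deletion (log2 change -0.60, adjusted p = 0.00403), and it was also the only 1 of the 6 whose deletion effect differed between the stages (-0.53, adjusted p = 0.00920).

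Of 18 TNF ligand genes 6 could be tested, and 4 fell in deficient Th17 cells (median -0.47), beside 55.2% of named and 29.0% of all tested rows. Beside Tnfsf9 these were Tnfsf8, the CD30 ligand (log2 change -0.64, adjusted p = 0.00260), Ltb, a lymphotoxin chain (-0.48, adjusted p = 0.00345), and Cd40lg, the CD40 ligand (-0.46, adjusted p = 0.0283). The Cd40lg call was lost when D3957, D3959, D3TAM955 or D3TAM959 was left out. On polarization of sufficient cells Tnfsf9 rose, whereas Tnfsf8 (-1.92), Ltb (-1.50) and Cd40lg (-1.29) fell. Over the ligand list, 2 genes rose and 3 fell in sufficient cells, and the same counts were found in deficient cells. In IL-7 cells, 1 of the 6, Lta, which encodes lymphotoxin alpha, fell with deletion (log2 change -0.93, adjusted p = 0.0117). Of the tested genes in the 5 pathway lists, Lta was the only one for which a less negative deletion effect in Th17 than in IL-7 cells passed the test (difference 0.71, adjusted p = 0.0482), a call kept in 9 of 27 alternatives. Such a difference was found in 19.6% of all tested rows and 0.254% of named rows. Tnfsf4 and Tnfsf18 are not among the named genes and were not analysed here.

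Of 31 genes for TRAF adaptors and NF-kB signalling 12 could be tested. In deficient Th17 cells 7 fell and 5 did not pass (median -0.37), a share near the 55.2% of named rows that fell (29.0% of all tested rows). Birc2, an inhibitor of apoptosis protein bound to TRAF2, fell by 0.81 (adjusted p = 4.93e-05), and the TAK1-binding adaptor gene Tab2 fell by 0.70 (adjusted p = 5.91e-06). Traf1, an adaptor that binds 4-1BB, went from 5220 ± 816 to 3321 ± 375 normalized counts, a change of -0.65 (adjusted p = 5.99e-05). Birc3 fell by 0.47 (adjusted p = 9.48e-04), and Nfkb1, which encodes the p105 precursor of p50, fell by 0.22 (adjusted p = 0.0440), a call that was kept in 14 of 28 alternatives. Traf2 had 852 ± 58.7 and 823 ± 86.3 normalized counts in sufficient and deficient Th17 cells (log2 change -0.05, adjusted p = 0.594). On polarization of sufficient cells 5 genes rose, led by Traf4 (1.49) and Nfkb1 (0.82), and 5 fell, led by Tab1 (-0.98) and Traf2 (-0.69). In deficient cells 3 rose and 5 fell. In IL-7 cells 1 of the 12, Traf1, fell with deletion (-0.41, adjusted p = 0.0370), and leaving out BASAL955, BASAL957, BASAL959, BASALTAM955, BASALTAM957, BASALTAM960 or D3957 ended that call.

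Of 20 NF-kB target and feedback genes 8 could be tested, and 4 fell in deficient Th17 cells (median -0.74), beside 55.2% of named and 29.0% of all tested rows. Nfkbiz, which encodes the nuclear inhibitor family member IkB-zeta, fell by 1.75 (adjusted p = 1.29e-05) and Nfkbia, the inhibitor IkB-alpha, fell by 1.47 (adjusted p = 5.73e-05). Tnfaip3, the ubiquitin-editing enzyme A20, fell by 1.17 (adjusted p = 0.00125), and Bcl3 fell by 0.70 (adjusted p = 8.44e-04). On polarization of sufficient cells, where 41.6% of named rows rose and 35.3% fell (37.2% and 40.3% of all tested rows), 5 of the 8 rose and 1 fell, with Gadd45b (3.15), Tnfaip3 (2.48), Nfkbia (1.72) and Bcl3 (1.49) foremost. In IL-7 cells 1 of the 8, Bcl3, fell with deletion (log2 change -1.16, adjusted p = 9.09e-04). On polarization of deficient cells 4 rose and 1 fell. Nfkbia had 0.50 there (adjusted p = 0.0682) and Nfkbiz fell by 1.24 (adjusted p = 1.99e-04). The deletion effect was more negative in Th17 than in IL-7 cells for Nfkbiz (difference -1.31, adjusted p = 0.00771) and Nfkbia (-1.22, adjusted p = 0.00978), calls that were lost without the 4 libraries numbered like BASAL957 or like BASAL959.

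Of 14 other costimulatory and checkpoint receptor genes 6 could be tested, and 4 fell in deficient Th17 cells (median -0.75), beside 55.2% of named and 29.0% of all tested rows. Ctla4, the inhibitory receptor that competes with CD28, fell by 1.72 (SE 0.208, adjusted p = 1.78e-06), as large a log2 change as that of Tnfrsf18. It had 14385 ± 1580 normalized counts in sufficient and 4588 ± 1757 in deficient Th17 cells (SD, n = 4). Slamf1 fell by 1.05 (adjusted p = 0.00103), Cd226 by 0.89 (adjusted p = 1.07e-04) and Cd2 by 0.61 (adjusted p = 2.52e-05). On polarization of sufficient cells 4 rose, with Ctla4 (4.42) and the checkpoint receptor gene Lag3 (4.37) foremost, and 2 fell, among them Cd226 (-1.19). In deficient cells 4 rose and 2 fell as well. In IL-7 cells, Ctla4 fell by 0.78 with deletion (adjusted p = 0.0435), a call that was kept in 13 of 28 alternatives.

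**Figure D5:**
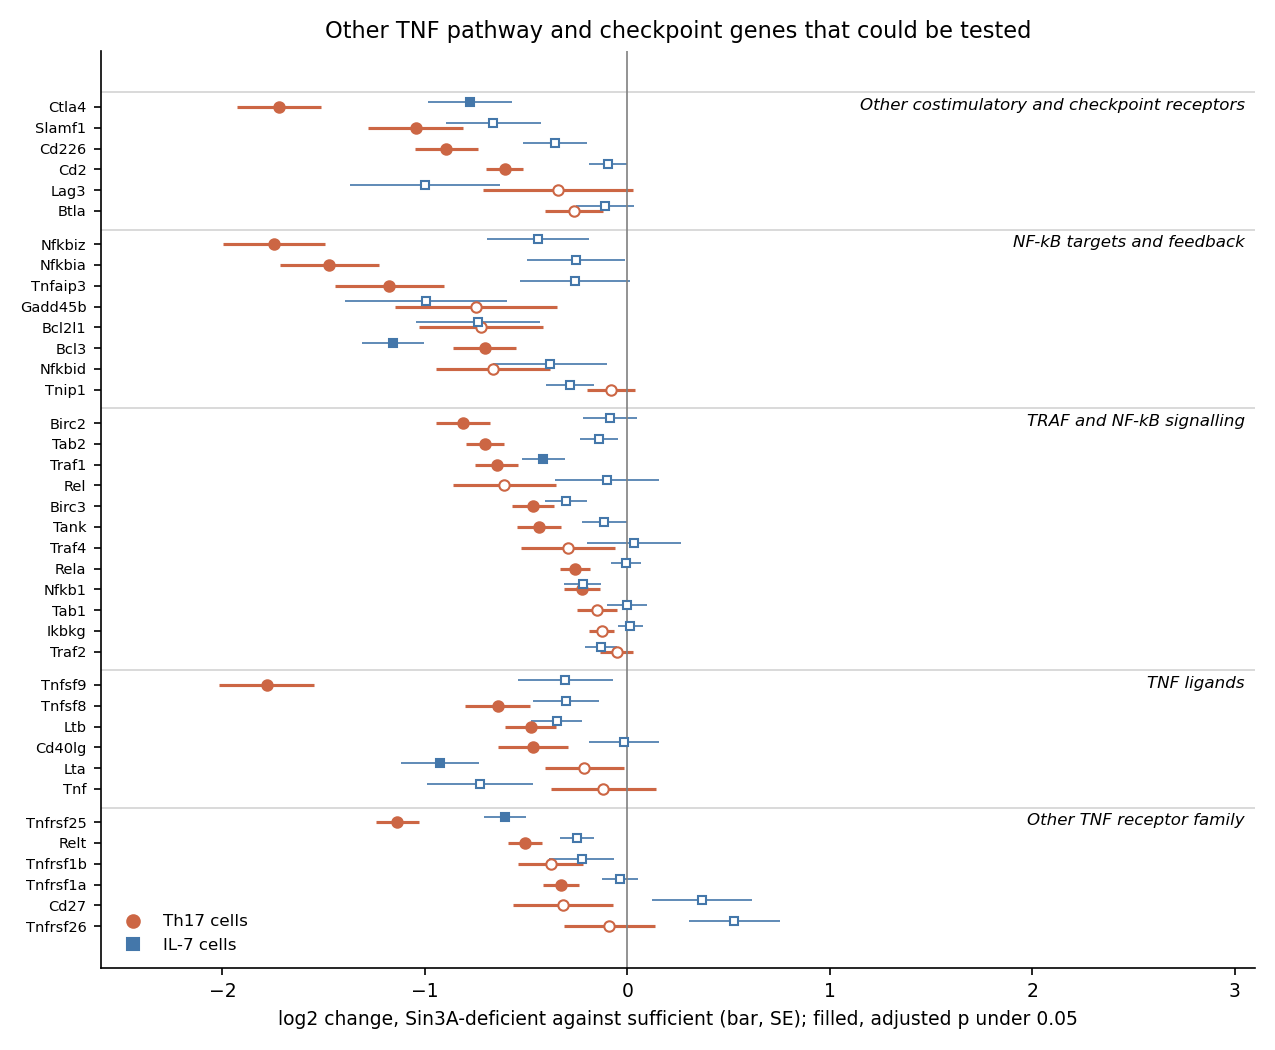
Log2 change in Sin3A-deficient against sufficient cells for each listed gene that could be tested, in Th17 cells (circles) and IL-7 cells (squares), with bars of 1 SE; filled symbols have an adjusted p under 0.05. Tnfsf9, Nfkbiz and Ctla4 had the most negative changes in Th17 cells, between -1.78 and -1.72, and all genes drawn are named in the table because the authors list them as lower there.

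General T cell genes also moved with the groups. Of 10 T cell markers 7 could be tested (Cd3d, Cd3e, Cd4, Cd2, Thy1, Lck and Zap70), and all 7 fell in deficient Th17 cells, with a median of -0.56. Like all named genes they were listed for being lower there, and 55.2% of named rows (median -0.42) and 29.0% of all tested rows fell. Their summed level was 60102 to 64667 normalized counts in sufficient and 37419 to 41057 in deficient Th17 cells, and 66708 to 81040 over the IL-7 libraries. Of 8 regulatory T cell markers 3 could be tested, Ikzf2, Ctla4 and Itgae, and all 3 fell in deficient Th17 cells (median -1.26), from a summed 14569 to 17310 down to 3614 to 7506. Most of these sums was Ctla4, with means of 14385 in sufficient and 4588 in deficient Th17 cells, whereas Ikzf2 fell by 0.65. The defining gene Foxp3 is not among the named genes and was not analysed here. In IL-7 cells 2 of these 3 fell, Ctla4 and Itgae (-1.91, adjusted p = 0.00506), from a sum of 1795 to 3132 in sufficient to 1192 to 1815 in deficient libraries. Markers of other lineages could be tested for 4 genes. Cd8b1 had 150 to 175 and 73.3 to 116 normalized counts in sufficient and deficient Th17 cells, the B cell gene Cd79a 25.6 to 47.4 and 18.1 to 27.8, the cytotoxic gene Prf1 47.0 to 289 and 7.91 to 74.9, and the erythroid gene Alas2 11.9 to 17.4 and 3.83 to 7.50. None of the 4 was at 0 in any group, and no myeloid or dendritic cell marker could be tested. The part of these cell type markers in the receptor differences was not tested.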

How the data were processed

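RNA from 16 libraries (100 ng each, stranded poly-A kit, 59-cycle reads, per the labels' protocols) was sequenced. The submitters' processing notes name Trim Galore 0.4.4, STAR 2.6, the build NCBIM37, featureCounts, edgeR and DESeq2, with no settings. The deposited table holds read counts divided by the authors' size factors, with decimal points and trailing zeros lost and rows out of gene order. Beside it the authors deposited mean counts, log2 fold changes with SEs, test scores and p-values for 8552 genes that are lower in deficient Th17 cells.

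The value of 1 read in each library was found from the steps between values (99.993% of values came out as whole reads, within 1.2e-09 of the value or 1e-09 of a read). Powers of 10 were chosen where the libraries of a group, and both Sin3A states of a stage, lay close together. Names were joined to rows where the authors' log2 fold change was met within 1e-06 and the next row was at least 20 times further away: 8053 genes (94.2%) joined, against 19 of 1000 decoys with shifted fold changes. The 3 receptors were met within 3.61e-07. Raising by a power of 10 was needed for 2 values of Tnfrsf4, 1 of Tnfrsf9 and 1 of Tnfrsf18. The least certain set was Tnfrsf9 in sufficient Th17 cells (posterior 0.603, against 0.392 with D3955 at 317), which the authors' fold change decided; in the IL-7 groups, which no fold change checks, Tnfrsf9 had posteriors of 0.977 and 0.980. In all, 14107 of 17850 rows were restored with a posterior of at least 0.95 or by the join.

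Differences were tested with limma 3.58.1 (trend, R 4.3.3) on log2(normalized count + 1) over all 16 libraries, for rows with a mean of at least 10 in a group, with Benjamini-Hochberg adjustment over 13675 rows and a threshold of 0.05. Rise and fall below mean that this threshold was passed. Named genes of each list are those past the threshold with the 4 largest changes, plus the testable receptor ligands, Traf1, Traf2, Nfkb1 and Cd27. The members, lists and rule were chosen with earlier results of these data known. In data simulated for the Th17 deletion effect (14107 rows), 48 of 48 rows changed by -1.75, 46 of 47 changed by -1.0 and 19 of 50 changed by -0.5 were called, with 15 of 12095 unchanged rows. All simulated rows shared the same dispersion, few were changed, and the library number had no effect. In the data 7758 of 13675 rows were called, and the Tnfrsf9 SD was 33.8% to 89.2% of its group mean. The simulated rates therefore need not hold for these data.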

Additional observations from a re-analysis of the deposited data

Results flagged for a closer look

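A single library stood apart in 2 of the 12 groups of receptor values, both times for Tnfrsf9 and both times with number 960. In sufficient IL-7 cells the gap from BASAL960 (1253 normalized counts) to the next library was 0.868 of the whole range of the group, and in sufficient Th17 cells the gap from D3960 (8377) was 0.902. Both lie above Dixon's 95% critical value for 4 libraries, which chance passes in about 1 in 20 groups.

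The deletion effect on a pair of receptors differed between the stages, by the interaction term of the limma fit. It was -1.47 on the log2 scale for Tnfrsf4 (adjusted p = 4.13e-05) and -1.16 for Tnfrsf18 (adjusted p = 2.87e-04), in Th17 minus IL-7 cells.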

How the results depend on the processing

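The planned edgeR and DESeq2 fits were not run, since the deposited digits are not counts. In the other alternatives (28 for each comparison, 27 for the stage dependence), the Th17 deletion effect and the polarization effect in sufficient cells kept direction and call for Tnfrsf4, Tnfrsf9 and Tnfrsf18. All of these alternatives reused the same restored values. The direction of the Th17 deletion effect is fixed by the listing, so keeping it is no evidence of its own. Whether the shared numbers pair the libraries was checked by the correlation of same-numbered libraries' deviations from their group means. For the deletion effect the median r was 0.28 in IL-7 and 0.13 in Th17 cells, against -0.04 and -0.03 for different numbers. Deviations from a group mean cancel out within the group, so the r for different numbers is no independent reference. The own number was the best match in 4 of 4 libraries in 3 comparisons and 3 of 4 in polarization of sufficient cells, a hint of pairing from the data. The lowest r was 0.011 to 0.054, under the 0.1 required of every pair, and no label gives a pairing, so the fit without the block was kept as the reported one. Tnfrsf9 was lower in the deficient IL-7 library in 4 of 4 numbers. With the number as a replicate block, it passed in IL-7 cells (-1.31, adjusted p = 0.00408) and for the stage dependence (-1.23, adjusted p = 0.00604), no other receptor call changed, and the block called 770 in place of 528 rows for the IL-7 deletion effect. With libraries left out, that count ran from 24 (without the number of BASAL957) to 654, and the count for the stage dependence from 3179 (without the same number) to 5660, against 5185. In the same runs the IL-7 deletion effect was -0.61 to -0.51 for Tnfrsf18 and -1.60 to -0.78 for Tnfrsf9, polarization of deficient cells changed Tnfrsf18 by 0.028 to 0.33, and the stage dependence of Tnfrsf9 was -1.76 to -0.86. Signs turned only for values that had not passed. The Th17 deletion effect was -0.55 to 0.042 for Cd27 and -0.15 to 0.021 for Traf2. Polarization of deficient cells changed Traf1 by -0.0062 to 0.16. The stage dependence was -0.12 to 0.057 for Nfkb1 and -0.023 to 0.17 for Traf2. The log2 Tnfrsf4 to Tnfrsf18 ratio changed with deletion in Th17 cells by -0.088 to 0.0056. The cause of these changes was not tested.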
